A study of Mus musculus with 10 samples.

Results

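Hepatocytes from adult mouse liver were compared with undifferentiated mouse embryonic stem cells, across every gene that the array reads through a cluster naming that gene alone. The comparison takes 7 of the 10 arrays of the series, all 3 labelled adult hepatocytes and all 4 labelled undifferentiated embryonic stem cells. Of 41345 transcript clusters, the units in which the array reports a level, 23521 carry exactly 1 gene symbol, and after 1 cluster was kept per gene they gave 22180 genes. The other 3 arrays of the series hold hepatocyte-like cells differentiated from embryonic stem cells and enter only an alternative fit. The title of the series concerns recognition of hepatic cells by natural killer cells. Both groups carry the same strain label, Tg(CAG-luc, GFP)L2G85Chco on C.FVB with the laboratory code FathJ, a transgenic mouse line in which the broadly active CAG promoter drives luciferase and green fluorescent protein, so the transgene is common to both groups. The source is given as liver for the hepatocytes and as embryonic stem cells for the others. No treatment, age, sex or culture condition is labelled for either group. A passage number below 20 stands on all 7 samples, including the hepatocytes, where its meaning is not given. The labels number the samples as biological replicates without saying what separated them, and the p-values below measure only how much these samples varied, which may be technical.

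Hepatocytes are the epithelial cells that make up most of the liver. They secrete most plasma proteins, make bile, store and release glucose, dispose of ammonia as urea, and oxidise and conjugate foreign compounds, under a network of transcription factors that includes Hnf4a, Cebpa and Prox1. In the adult liver they rarely divide. Embryonic stem cells are the opposite in these respects: they come from the early embryo, hold a network of factors around Pou5f1, Sox2 and Nanog, and divide rapidly with a short G1 phase.

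Levels are log2 values, so that a difference of 1 is a doubling. The median level of an array over all clusters was 4.91 at the lowest and 5.07 at the highest, and precision rests on having 7 arrays. The median standard deviation of a gene was 0.22 among adult hepatocyte arrays and 0.21 among stem cell arrays. Within each group some arrays stood apart. Adult hepatocyte replicate 1 differed by more than 1 from the mean of the other adult arrays for 672 genes, against 263 for replicate 2 and 173 for replicate 3, and it carried transcripts of pancreatic acinar cells and other levels of clock genes than replicates 2 and 3, both described below. Among stem cells, replicate 1 correlated best with replicate 3 (Pearson's r = 0.985 over all clusters) and replicate 2 best with replicate 4 (r = 0.981). The lowest value was r = 0.968 between replicates 1 and 2. Replicate 4 correlated nearly as well with replicate 3 (r = 0.980) and replicate 1 (r = 0.979) as with replicate 2. These correlations run across clusters, which are not independent replicates.

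The labels were checked against markers of the cell types that each sample could hold. All 6 hepatocyte markers lay far above the stem cells on each adult array, and all 6 stem cell markers far below. Hnf4a, the nuclear receptor that maintains hepatocyte identity, read 10.18, 10.65 and 10.44 on the adult arrays and 5.78 to 6.21 on the stem cell arrays. Nanog read 4.74, 4.90 and 5.33 against 12.16, 12.35, 12.04 and 12.27. Pou5f1, which encodes Oct4, gave the smallest difference among the stem cell markers, at 4.88, 5.22 and 5.60 against 7.08, 7.50, 7.37 and 8.02. Neither group overlapped the other for any of these 12 genes.

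**Figure D1:**
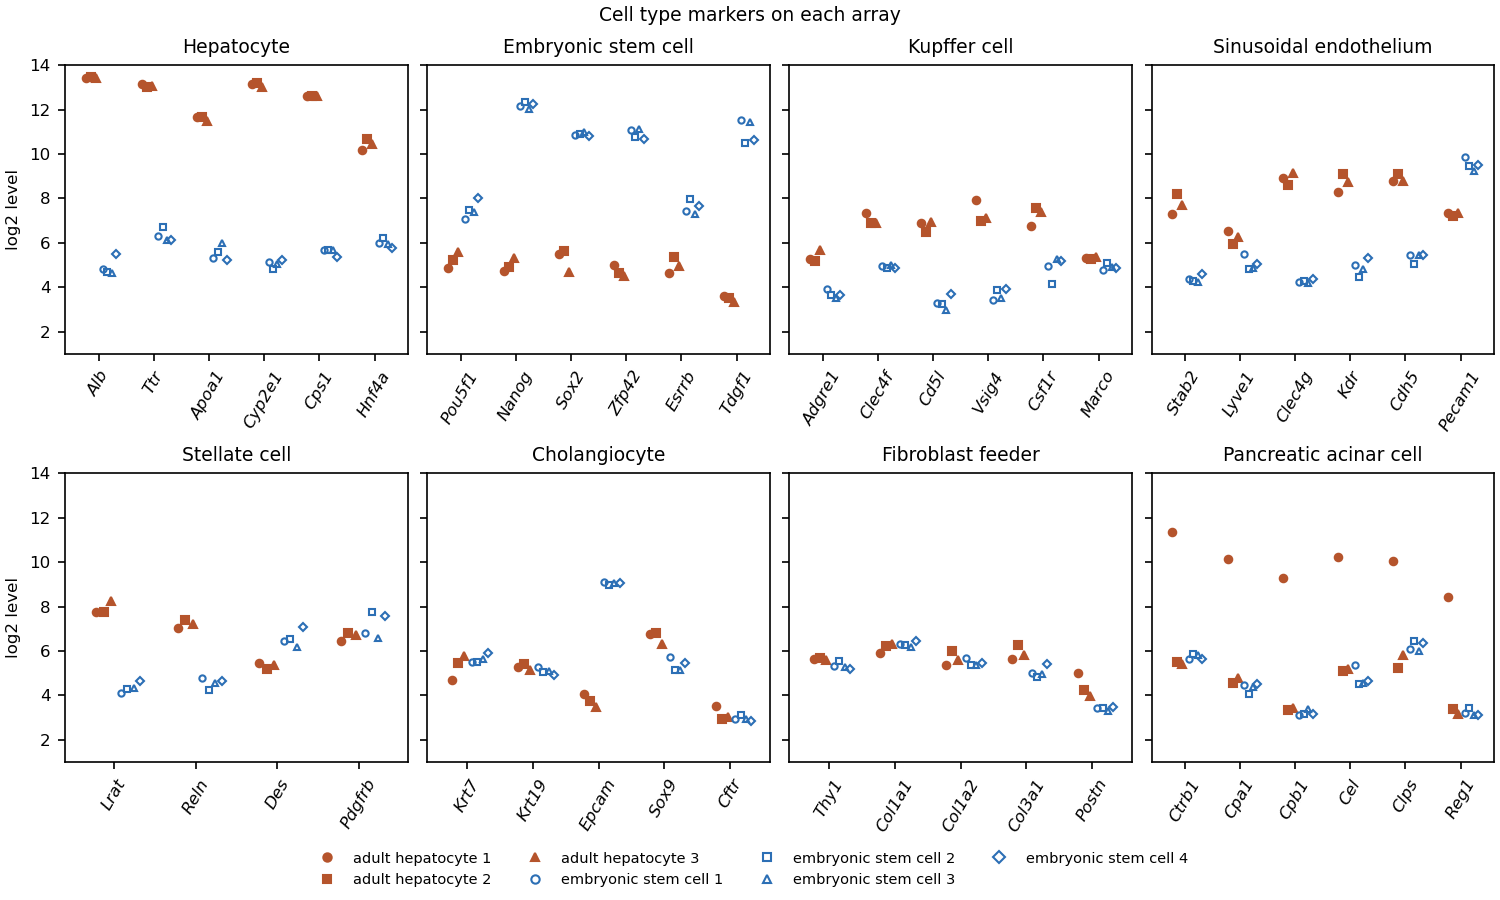
Log2 levels of markers of 8 cell types on each of the 7 arrays, adult hepatocytes filled and embryonic stem cells open, with a symbol per replicate. Hepatocyte and stem cell markers separate the groups, several markers of Kupffer cells and sinusoidal endothelium are raised on all 3 adult arrays, and the 6 pancreatic genes are high on adult replicate 1 alone, for example Ctrb1 at 11.37 against 5.49 and 5.41.

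Many markers of other liver cells were higher on the adult hepatocyte arrays. The background over all genes was 11.0% called higher in adult hepatocytes and 15.6% called lower. Of 21 markers of Kupffer cells, the resident macrophages of liver, 14 were higher and 1, Cd68, was lower. Clec4f, a lectin specific to Kupffer cells, read 7.35, 6.90 and 6.89 on the adult arrays and 4.85 to 5.02 on the stem cell arrays. The scavenger receptor Marco, at 5.31, 5.27 and 5.36 against 4.77 to 5.09, was not called. Of 24 markers of sinusoidal and vascular endothelium 17 were higher and 2, Pecam1 and Vwf, were lower. Clec4g, a lectin of liver sinusoids, stood at 8.90, 8.62 and 9.15 against 4.18 to 4.37, and the scavenger receptor Stab2 at 7.28, 8.19 and 7.70 against 4.23 to 4.59. Among stellate cell and fibroblast markers 9 of 23 were higher and 3, Ngfr, Sparc and Des, were lower. Lrat, which stores retinol in stellate cells, read 7.77, 7.74 and 8.24 against 4.12 to 4.65, and the proteoglycan Dcn 9.59, 8.61 and 8.89 against 3.43 to 4.09. All 3 list means were higher on every adult array than on any stem cell array. The mean of the Kupffer cell list was 6.19 to 6.47 on adult and 4.64 to 4.72 on stem cell arrays, that of the endothelial list 7.02 to 7.19 and 5.45 to 5.60, and that of the stellate list 6.60 to 6.61 and 5.30 to 5.39.

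Markers of bile ducts, blood cells and feeders were mostly not higher. Of 10 cholangiocyte markers 1 was higher, Sox9 (6.78, 6.83 and 6.33 against 5.12 to 5.73), 2 were lower, Epcam and Cldn4, which stem cells express, and the defining keratin Krt19 read 5.26, 5.43 and 5.13 against 4.90 to 5.27. Of 20 lymphocyte and granulocyte markers 0 were higher and 2 lower, and among 20 markers of fibroblast feeders, on which stem cells are often grown, 2 were higher in adult hepatocytes and 1 was lower. The collagen Col1a1 stood at 5.91, 6.24 and 6.32 on the adult arrays and 6.18 to 6.44 on the stem cell arrays. Only 3 of 13 erythroid genes were measured, because the globin genes share clusters or are not listed, and 0 of the 3 were called. In the results below, genes that macrophages, endothelium or stellate cells also express may include those cells' RNA, and their part in each difference was not tested. Throughout, fewer cells of a type and less RNA per cell cannot be told apart.

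The transcriptomes differed widely. Of 22180 genes, 5898 (26.6%) met both criteria for a call in limma, an adjusted p below 0.05 and a log2 difference of 1 or more, 2447 higher and 3451 lower in adult hepatocytes. Cyclic loess turned this balance, with 2937 higher and 2630 lower, so that 52.8% of calls were higher in place of 41.5%. The median difference over all genes was 0.05. Beyond a log2 difference of 2 the directions were even, with 1267 higher and 1234 lower, and beyond 4 the higher side prevailed with 506 against 184. Differences of at least 8 were found for 31 genes, all of them higher in adult hepatocytes. The median of the genes called higher was 2.06 and that of the genes called lower was -1.69. All 3 adult arrays lay above all 4 stem cell arrays for 4970 genes (22.4%) and below them for 5435 (24.5%).

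**Figure D2:**
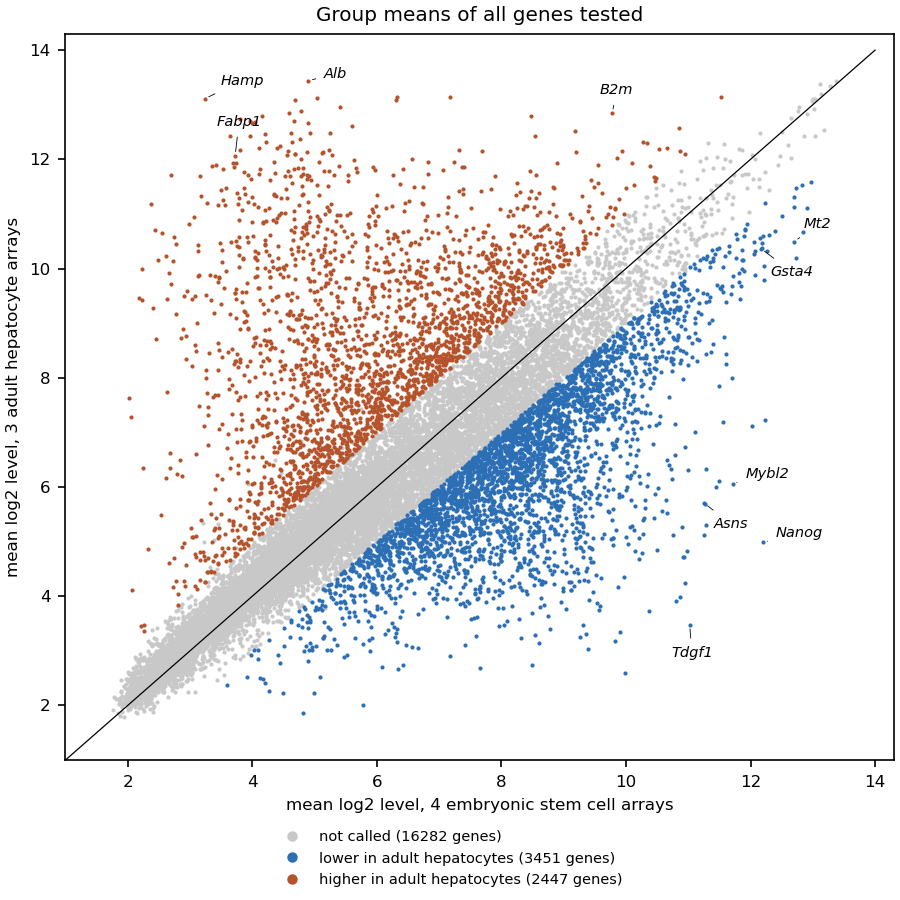
Mean log2 level of each of 22180 genes in 4 embryonic stem cell arrays (x axis) and 3 adult hepatocyte arrays (y axis), with the 2447 genes called higher and 3451 called lower in adult hepatocytes in colour and the line of equality. The genes that reach farthest from the line lie above it, near the low end of the stem cell axis, where Hamp, Fabp1 and Alb stand.

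Hamp, which encodes the iron hormone hepcidin, had the largest difference of all. Hamp read 13.04, 13.17 and 13.14 in adult hepatocytes and 2.72, 3.54, 3.23 and 3.47 in stem cells, a difference of 9.87 ± 0.20 (standard error) with an adjusted p of 5.45e-11 in limma. Every adult array was at the top of the scale and every stem cell array near its floor. Next came the sulfotransferase Sult3a2 (9.02 ± 0.19), the protease inhibitor Serpina1c (8.93 ± 0.33) and a further sulfotransferase, Sult3a1 (8.81 ± 0.22). The cytochrome Cyp2b9 was higher by 8.80 ± 0.17, the pheromone carrier Mup3 by 8.72 ± 0.21 and A1bg, a plasma glycoprotein, by 8.63 ± 0.16. The fibrinogen chains Fgb and Fgg, albumin, the cytochrome Cyp2j5 and the uptake carrier Slco1b2 complete the 12 largest differences on this side. At these stem cell levels, between 2 and 5, the arrays are near their floor, so a fold change read from them depends on that floor. On the other side the Nodal co-receptor Tdgf1 was lower by 7.54 ± 0.26 and Nanog by 7.22 ± 0.17, followed by the nuclear receptor Nr0b1 (-6.88 ± 0.18), the zinc finger gene Zfp981 (-6.71 ± 0.42) and the F-box gene Fbxo15 (-6.64 ± 0.19). The linker histone gene H1f5, Bex3, Zfp42, Dppa2 and Stmn2 were at -6.56, -6.21, -6.20, -6.15 and -6.14, and Rex2 and Lrrc34 complete the 12 on this side.

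Nearly all plasma protein genes were higher. Of 29 measured genes for plasma carriers and protease inhibitors (33 listed), 28 were higher and 0 lower, with a median difference of 6.83. The remaining gene was Afp, the fetal counterpart of albumin, at 4.90, 4.77 and 4.99 against 4.53, 4.93, 4.63 and 4.41. Alb itself read 13.42, 13.48 and 13.42 against 4.81, 4.67, 4.62 and 5.51 (8.54 ± 0.21, adjusted p = 1.31e-10 in limma). The histidine-rich glycoprotein Hrg was higher by 8.24 ± 0.16 and Ambp, the precursor of bikunin, by 8.10 ± 0.15. Coagulation and fibrinolysis genes were higher in 20 of 25 and lower in 1 (median 6.67): antithrombin, Serpinc1, was higher by 8.16 ± 0.16, the fibrinogen chain Fga by 7.90 ± 0.19 and vitronectin, Vtn, by 7.77 ± 0.15. The exception was the pathway inhibitor Tfpi, at 5.91, 5.95 and 5.85 against 7.03, 6.59, 7.42 and 6.57, a difference of just over 1 that was not called under cyclic loess, under a further quantile step, or without adult replicate 3, stem cell replicate 1 or stem cell replicate 3. Complement genes were higher in 17 of 20 and lower in 0 (median 5.32, with 1 lower if adult replicate 1 or stem cell replicate 2 was left out), among them C4bp (7.29 ± 0.15), the regulator Cfi (7.04 ± 0.21) and the pore component C9 (6.26 ± 0.24). Apolipoproteins and lipoprotein enzymes were higher in 18 of 19 (median 4.51), with Apob at 13.01, 12.81 and 12.83 against 4.80, 4.79, 4.43 and 5.09. The phospholipid transfer protein Pltp went the other way, at 8.26, 8.67 and 8.89 against 9.20, 10.28, 9.35 and 10.32 (-1.18 ± 0.30, and -0.72 under cyclic loess, where it was not called).

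Promoters are shown for those of the largest plasma protein and cytochrome P450 differences whose motif match lay nearest the start site. Genes without a match could not be picked, so each promoter shown holds a match by choice. Sequences are from RefSeq on build GRCm38.p6, cover the 250 bases before the start site, and carry matches in capitals, searched on both strands as GTTAATNAT (HNF1), TGNACTTTG (HNF4) and TTGCNNAA (C/EBP).
Alb, chr5:90460620-90460869, plus strand: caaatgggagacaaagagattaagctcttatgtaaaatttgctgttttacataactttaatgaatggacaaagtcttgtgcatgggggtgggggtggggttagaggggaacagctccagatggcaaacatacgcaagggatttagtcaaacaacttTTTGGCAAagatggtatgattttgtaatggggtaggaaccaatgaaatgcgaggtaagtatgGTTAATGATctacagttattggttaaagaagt
Saa4, chr7:46732604-46732853, minus strand: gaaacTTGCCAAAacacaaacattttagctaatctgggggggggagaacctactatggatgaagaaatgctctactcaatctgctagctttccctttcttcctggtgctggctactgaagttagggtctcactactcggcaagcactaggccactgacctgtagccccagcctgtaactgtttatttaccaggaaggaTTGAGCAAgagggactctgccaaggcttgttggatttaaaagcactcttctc
A1bg, chr15:60921271-60921520, minus strand: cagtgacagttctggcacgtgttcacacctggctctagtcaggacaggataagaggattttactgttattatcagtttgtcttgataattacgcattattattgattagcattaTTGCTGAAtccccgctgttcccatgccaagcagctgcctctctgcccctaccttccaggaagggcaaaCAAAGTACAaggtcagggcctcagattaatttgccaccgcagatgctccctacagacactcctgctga
Hrg, chr16:22950822-22951071, plus strand: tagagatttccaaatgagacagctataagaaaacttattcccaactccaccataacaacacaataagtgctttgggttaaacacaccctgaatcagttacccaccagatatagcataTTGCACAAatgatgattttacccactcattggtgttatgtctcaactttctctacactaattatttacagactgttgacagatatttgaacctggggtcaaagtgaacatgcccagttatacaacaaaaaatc
In Alb the HNF1 match lay at -32 to -24 and a C/EBP match at -94 to -87. Saa4 had C/EBP matches at -52 to -45 and -245 to -238. A1bg had an HNF4 match at -68 to -60 and a C/EBP match at -136 to -129, and Hrg a C/EBP match at -133 to -126.

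These motifs were counted in windows of 250 bases before and 50 after the start site, which RefSeq gave for 16990 of the genes (20611 promoters). The C/EBP letters were found in 59.3% of 27 promoters of the plasma protein list, in 33.3% of 33 promoters of cytochrome P450 genes and in 10.3% of all promoters. HNF1 letters stood in 11.1%, 0% and 0.713%, and HNF4 letters in 3.70%, 21.2% and 1.31%. The sequence TATAAA was present in 29.6% of plasma protein promoters and 45.5% of cytochrome promoters, against 12.3% of all. Over all genes called higher the shares were 12.5% for C/EBP, 1.76% for HNF1, 2.89% for HNF4 and 11.9% for TATAAA. C/EBP letters stood in 28.6% of coagulation and 16.7% of apolipoprotein promoters. Plasma protein and cytochrome promoters were also poor in CpG, with a median of 3 and 2 CpG in 300 bases. The median was 13 over all genes, 13.5 over genes called higher and 21 over genes called lower. Promoters of related genes resemble each other, so these shares describe families and not independent sequences. A match is a description of letters and not a measured site.

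**Figure D3:**
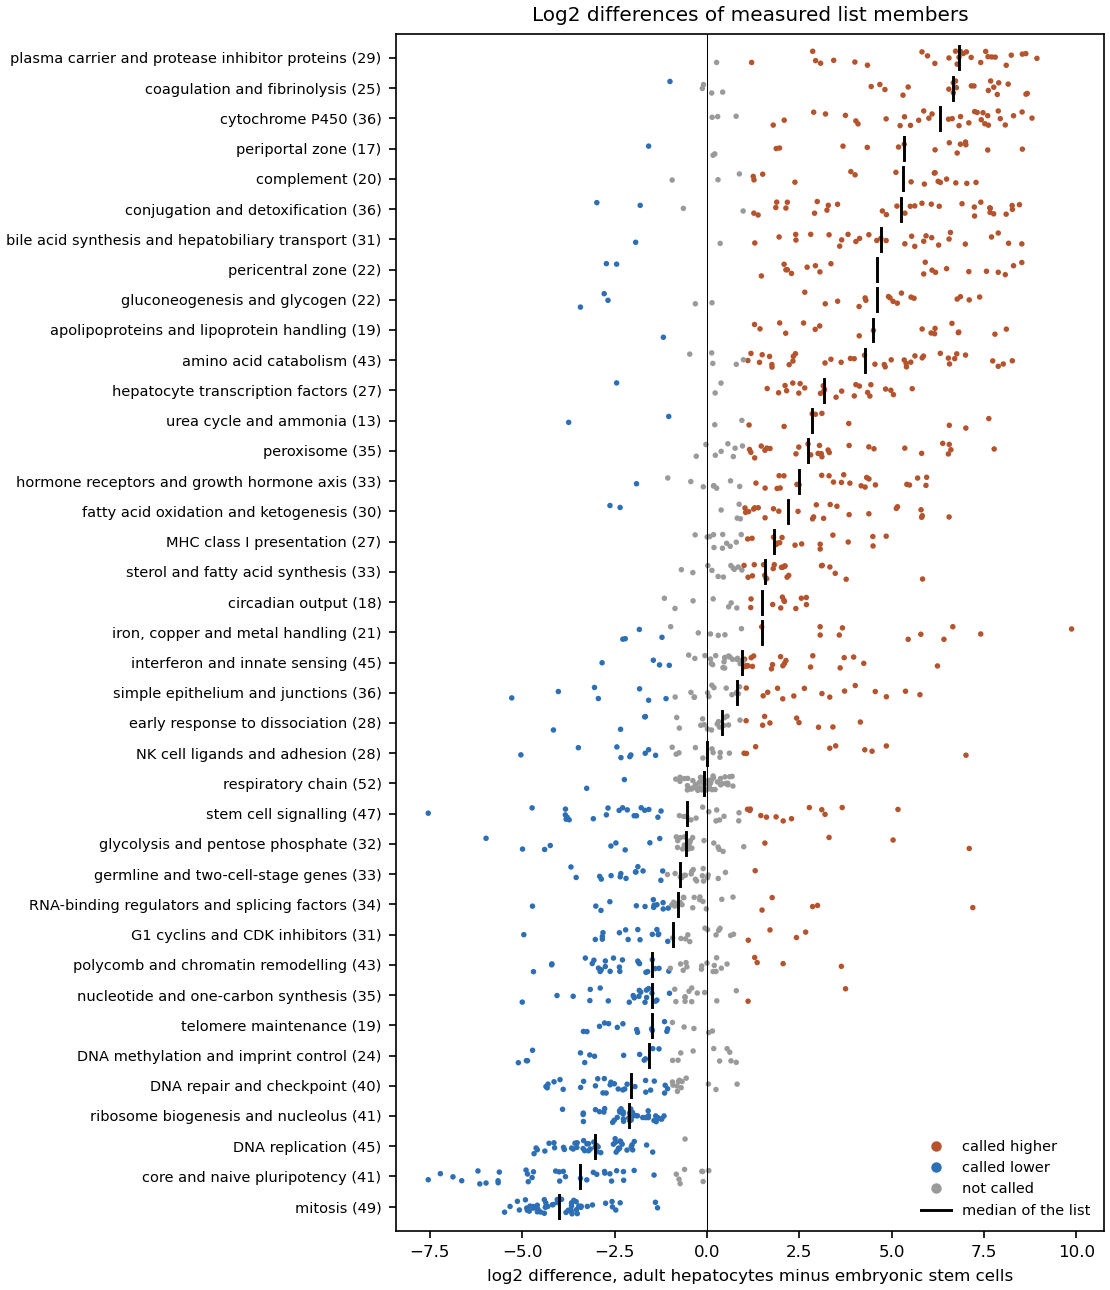
Log2 difference between adult hepatocytes and embryonic stem cells for each measured member of 39 gene lists, with a bar at the median and the number of measured members in brackets. Lists of liver functions lie to the right, mitosis, pluripotency and DNA replication to the left, and the respiratory chain clusters around 0.

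Genes of hepatocyte transcription factors were higher in 24 of 27 and lower in 1, with a median of 3.17. Ppara, a receptor that drives fatty acid oxidation, was higher by 4.84 ± 0.20, with every stem cell array between 4.76 and 5.24. The constitutive androstane receptor Nr1i3 was higher by 4.41 ± 0.16 and Hnf4a by 4.44 ± 0.17. The single fall was that of Tbx3, a T-box repressor shared by hepatoblasts, pericentral hepatocytes and stem cells, at 8.25, 7.55 and 7.23 against 9.87, 10.26, 10.12 and 10.25. Receptors for hormones and the growth hormone axis were higher in 24 of 33 and lower in 1 (2 without adult replicate 1 or stem cell replicate 2): Igf1, the main endocrine growth factor of liver, by 5.95 ± 0.17, the growth hormone receptor Ghr by 5.70 ± 0.22, and Egfr by 4.56 ± 0.16. The receptor for that growth factor, Igf1r, was lower, at 5.24, 5.37 and 5.04 against 7.24, 7.28, 6.85 and 7.12 (-1.91 ± 0.16).

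Oxidation and conjugation of small molecules followed. Cytochrome P450 genes were higher in 33 of 36 and lower in 0 (median 6.32). Cyp2e1, which oxidises ethanol, read 13.13, 13.20 and 13.04 against 5.12, 4.81, 5.03 and 5.22. Cyp2c29 was higher by 8.30 ± 0.17. Of 36 conjugation and detoxification genes 32 were higher (median 5.25), among them the glucuronosyltransferases Ugt2b1 (8.27 ± 0.20) and Ugt3a2 (8.26 ± 0.15). Both exceptions protect against electrophiles and oxidants: the quinone reductase Nqo1, at 7.57, 7.07 and 6.95 against 10.02, 10.09, 10.42 and 10.18, and the glutathione transferase Gsta4, at 10.48, 10.31 and 10.30 against 12.23, 12.19, 12.21 and 12.05. Their differences were -2.98 ± 0.18 and -1.81 ± 0.14. Several of these families lie in runs along the chromosome in which each measured neighbour was higher. Among these families the longest runs were 10 Cyp2c genes from Cyp2c29 to Cyp2c70, 7 genes from Sult2a5 to Sult2a8, 7 from Ugt2b34 to Ugt2a3 and 6 from Ces1b to Ces1g. Members of such families share sequence, so 1 probe can read several of them.

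In intermediary metabolism the breakdown of nitrogen compounds was higher nearly throughout. Urea cycle and ammonia genes were higher in 9 of 13 and lower in 2 (median 2.85). The entry enzyme Cps1 read 12.62, 12.61 and 12.61 against 5.69, 5.68, 5.66 and 5.37, and ornithine transcarbamylase, Otc, was higher by 7.63 ± 0.19. Aldh18a1, which makes proline and ornithine from glutamate, was lower, at 4.65, 4.92 and 5.17 against 8.40, 8.98, 8.34 and 8.91 (-3.74 ± 0.21). The other was Arg2, at -1.03, which was not called without adult replicate 1 or 3 or stem cell replicate 2 or 4. Genes of amino acid catabolism were higher in 38 of 43 and lower in 0 (median 4.27), led by tyrosine aminotransferase, Tat (8.27 ± 0.17), methionine adenosyltransferase, Mat1a (8.02 ± 0.17), and tryptophan dioxygenase, Tdo2 (7.89 ± 0.16). For gluconeogenesis and glycogen 17 of 22 were higher and 3 lower (median 4.61): Fbp1 by 7.38 ± 0.15, G6pc, which releases free glucose, by 6.86 ± 0.14, and the gluconeogenic entry enzyme Pck1 by 6.78 ± 0.19. Pck2, the mitochondrial counterpart of Pck1, was lower by 2.68 ± 0.35.

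Lipid pathways differed in degree. Fatty acid oxidation and ketogenesis genes were higher in 24 of 30 and lower in 2, with a median of 2.21. The bile acid and fatty acid ligase Slc27a5 was higher by 6.56 ± 0.15 and the medium-chain ligase Acsm1 by 5.80 ± 0.14. Oxct1, with which cells other than hepatocytes burn ketone bodies, was lower, at 5.75, 5.60 and 5.57 against 8.34, 7.82, 8.11 and 7.69 (-2.35 ± 0.18). Peroxisomal genes were higher in 27 of 35 and lower in 0 (median 2.74), with urate oxidase, Uox, at 7.78 ± 0.17 and the glycolate oxidase Hao1 at 6.61 ± 0.20. Sterol and fatty acid synthesis was higher in 22 of 33 and lower in 0, with a median of 1.56. Its largest differences were those of the lipogenic regulators Thrsp (5.84 ± 0.19) and Mlxipl (3.77 ± 0.22), while Hmgcs1 and Sqle of the cholesterol pathway lay at 0.95 and 0.65 and were not called. Bile acid synthesis and transport genes were higher in 29 of 31 and lower in 1 (median 4.71). The bile salt export pump Abcb11 read 11.25, 11.10 and 11.14 against 2.93 to 3.73, and the uptake carrier Slc10a1 read 11.51, 11.30 and 11.23 against 4.39, 4.04, 4.46 and 4.52. The exception, Slc51a, encodes a basolateral bile acid exporter of intestine and read 4.10, 4.83 and 4.58 against 5.54, 7.31, 6.01 and 6.88.

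Genes of both zones of the liver lobule were present. Of 17 periportal genes 14 were higher and 1 lower, and of 22 pericentral genes 20 were higher and 2 lower. The periportal cytochrome Cyp2f2 was higher by 7.60 ± 0.24, the pericentral Cyp1a2 by 7.09 ± 0.17 and the pericentral calcium-binding enzyme Rgn by 7.57 ± 0.17. Axin2, a target of Wnt signalling that marks the cells next to the central vein, was lower, at 6.59, 6.18 and 5.91 against 8.67, 8.92, 9.27 and 8.95 (-2.72 ± 0.20). The periportal exception was the cadherin Cdh1, at 9.20, 9.26 and 9.14 against 10.64, 10.94, 10.58 and 10.95. Lgr5, a Wnt co-receptor of pericentral hepatocytes, was higher in adult hepatocytes by 2.29 ± 0.39, with replicate 1 at 7.88 and the others at 5.85 and 6.20 against 4.25 to 4.48.

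Iron and metal genes went both ways. Of 21 measured, 11 (52.4%) were higher and 4 (19%) lower, against 11.0% and 15.6% of all genes. Hepcidin and its regulators were higher, with the serine protease Tmprss6 at 5.79 ± 0.16 and the iron sensor Tfr2 at 5.45 ± 0.25. The iron exporter Slc40a1, also abundant in Kupffer cells, was higher by 6.66 ± 0.16 and the copper carrier Cp by 7.41 ± 0.19. The transferrin receptor Tfrc, through which dividing cells import iron, was lower, at 7.02, 6.52 and 6.60 against 9.60, 8.43, 9.43 and 8.50 (-2.28 ± 0.29). Both metallothioneins were lower: Mt2 read 11.09, 10.69 and 9.71 against 12.74, 12.81, 12.70 and 12.57, and Mt1 was lower by 1.22 ± 0.16 (-0.78 and not called under cyclic loess). The haem oxygenase Hmox1 was lower by 1.83 ± 0.16.

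Of 8 pairs of related enzymes and carriers picked for plotting, 6 differed in opposite directions within the pair. The liver pyruvate kinase Pklr read 10.05, 10.45 and 10.55 against 5.45, 5.26, 4.99 and 5.54, whereas Pkm, the form of most dividing cells, read 6.89, 7.31 and 7.50 against 12.10, 12.27, 12.22 and 12.30. Their differences, 5.04 ± 0.19 and -4.99 ± 0.17, were of nearly equal size and opposite sign. The glucose carriers gave 7.10 ± 0.17 for Slc2a2 and -5.98 ± 0.24 for Slc2a3, the glycogen synthases 5.53 ± 0.15 for Gys2 and -2.78 ± 0.24 for Gys1, and the glycogen phosphorylases 5.27 ± 0.22 for Pygl and -3.42 ± 0.17 for Pygb. Among acetyl-CoA synthetases the cytosolic Acss2 was higher by 3.10 ± 0.23 and the mitochondrial Acss1 was at -3.95 ± 0.16. The arginases were less balanced, with Arg1 at 6.56 ± 0.16 and Arg2 at -1.03 ± 0.20. Without each of the 4 arrays on which its call depends, Arg2 was at -0.92 to -0.98. In other pairs 1 form did not pass the test. Cpt1a, the liver form of the carnitine transferase, read 10.28, 10.87 and 10.35 against 9.95, 10.17, 10.05 and 10.28, while the brain form Cpt1c was lower by 2.62 ± 0.27. The polycomb methylase Ezh2 was lower by 3.29 ± 0.22, and Ezh1, its counterpart in resting cells, read 8.04, 8.08 and 7.98 against 8.74, 8.58, 8.61 and 8.46, a difference of -0.57 that was not called. The pairs plotted are only part of the pair list. In all, 13 of its 35 measured members were higher, 12 lower and 10 not called.

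**Figure D4:**
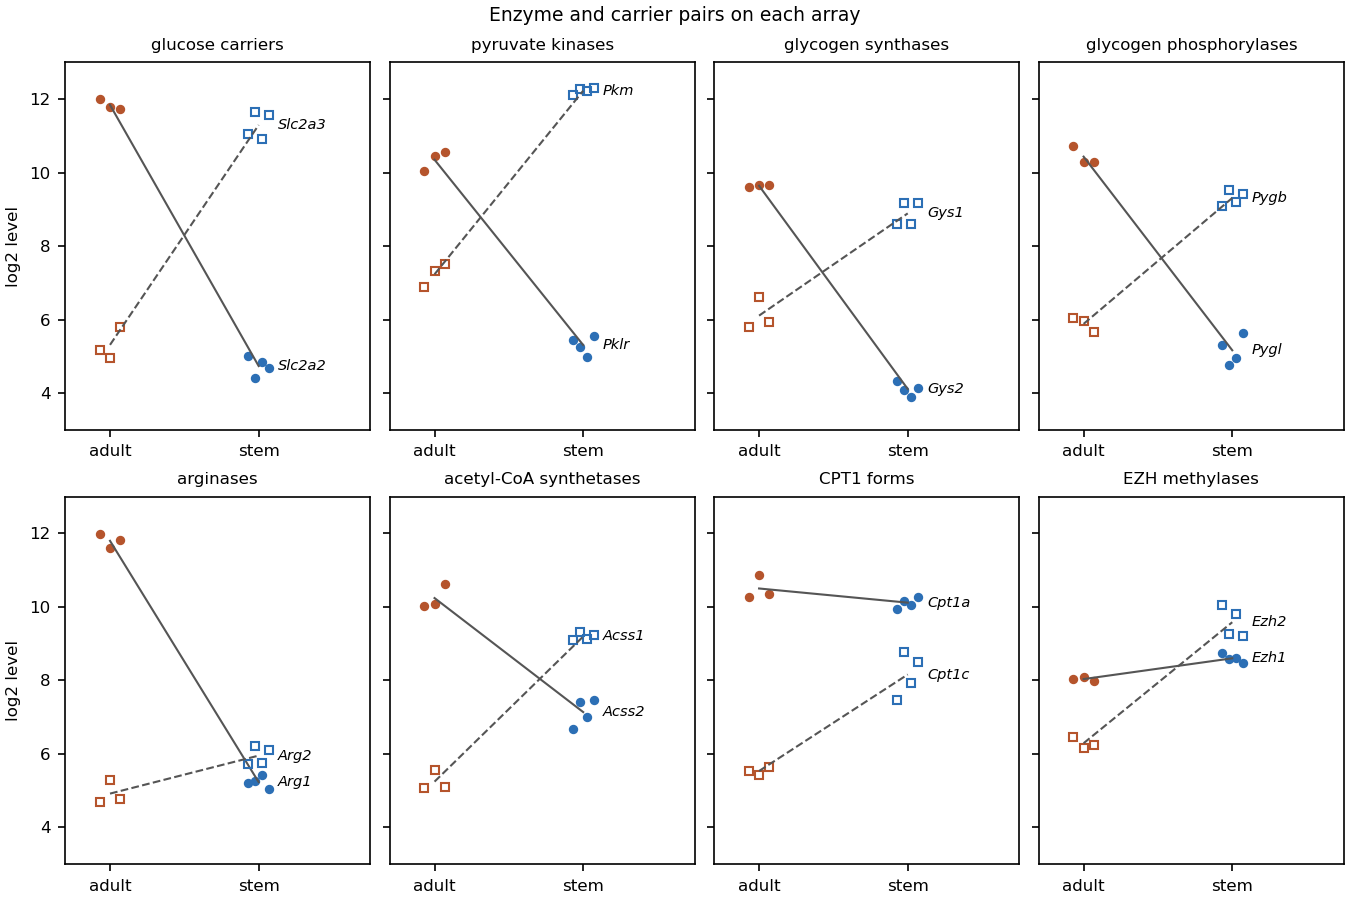
Log2 levels of 8 pairs of related genes on each array, adult hepatocytes at left and embryonic stem cells at right in each panel, with lines joining the group means. In 6 panels, all but those of the CPT1 and EZH forms, 1 gene was called higher and the other lower in adult hepatocytes; levels of different genes come from different probes and are not compared.

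Glycolysis as a whole moved less than its pair members. Of 32 glycolytic and pentose phosphate genes 4 (12.5%) were higher and 9 (28.1%) lower, and the median was -0.56. The share higher was near the 11.0% of all genes called higher. Hexokinase Hk2 read 4.95, 5.24 and 5.22 against 9.48, 9.38, 9.33 and 9.32 (-4.24 ± 0.14), and the phosphofructokinase Pfkp was lower by 4.39 ± 0.18. Of 52 genes of the respiratory chain 0 were higher and 2 lower, and the median was -0.07. Cox7a1, a muscle-type subunit of cytochrome oxidase, was lower, at 5.56, 5.74 and 5.58 against 8.19, 9.38, 8.44 and 9.53 (-3.26 ± 0.30), as was the testis-type subunit Cox6b2 (-2.24 ± 0.29). Under cyclic loess 4 members were called higher.

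Tdgf1 and Nanog, the largest differences on the stem cell side, belong to the pluripotency genes. Of 41 measured (44 listed), 33 were lower in adult hepatocytes and 0 higher, with a median of -3.42. Sox2 read 5.50, 5.63 and 4.67 against 10.87, 10.88, 11.01 and 10.81 (-5.62 ± 0.22). Klf5, a factor of the naive state, was lower by 5.65 ± 0.14 and Tfcp2l1 by 4.10 ± 0.16. The Nodal antagonist Lefty2 was lower by 4.73 ± 0.18 and Fgf4, the growth factor that stem cells make for themselves, by 3.83 ± 0.17. Mybl2, a cell cycle transcription factor, was lower by 5.65 ± 0.15. Fgf5, a gene of the later, primed epiblast, was low in both groups: it read 4.63, 4.59 and 4.77 in adult hepatocytes and 4.88, 4.49, 4.90 and 4.80 in stem cells. The promoter of Zfp42, which encodes the stem cell marker Rex1, is shown for its octamer match (ATTTGCAT, in capitals), at -186 to -179.
Zfp42, chr8:43307010-43307259, minus strand: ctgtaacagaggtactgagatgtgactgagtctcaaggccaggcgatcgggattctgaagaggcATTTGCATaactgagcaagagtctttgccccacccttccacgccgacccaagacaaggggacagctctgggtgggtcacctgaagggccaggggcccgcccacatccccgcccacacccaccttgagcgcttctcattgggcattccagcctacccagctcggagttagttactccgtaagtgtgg
Octamer letters stood in 5.71% of 35 promoters of the pluripotency list and in 1.61% of all.

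Chromatin genes followed. Of 24 genes of DNA methylation and imprint control 14 were lower and 0 higher (median -1.56). Uhrf1, which brings the maintenance methylase to replicated DNA, read 5.56, 5.70 and 6.02 against 10.48, 10.66, 10.75 and 10.70 (-4.89 ± 0.16). The dioxygenase Tet1 was lower by 4.86 ± 0.24, and the methylases Dnmt1 and Dnmt3b were at -3.31 ± 0.14 and -3.42 ± 0.26. Of 43 polycomb and remodelling genes 25 (58.1%) were lower and 4 (9.3%) higher (median -1.48), against 15.6% and 11.0% of all genes. Higher were Smarca2, an ATPase of the BAF complex, at 9.69, 9.85 and 9.61 against 5.91, 6.32, 6.05 and 6.02 (3.64 ± 0.15), with Smarcc2, Chd3 and Ep400 at 1.36, 1.29 and 2.06. Another cluster of Ep400 was called in the opposite direction, so its direction is uncertain. With a gene's clusters averaged, Ep400 (0.44) and Chd3 (0.98) were not called. Germline genes were lower in 14 of 33 and higher in 1. The meiotic gene Dazl read 3.58, 4.33 and 3.82 against 7.69, 7.59, 7.14 and 7.38, while Hormad1 varied among stem cells, at 7.50, 5.67, 7.64 and 4.58. A run of 12 neighbouring genes from Tnfrsf8 to Zfp984, most of them zinc finger genes, was lower throughout. Its members Zfp981 and Rex2 were at -6.71 ± 0.42 and -6.04 ± 0.49, and these near-identical copies can share probes.

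Cell division genes were lower almost without exception. All 49 measured genes of mitosis were lower (median -4.01), as were 44 of 45 genes of DNA replication (median -3.03). The mean of the mitosis list was 5.05 to 5.12 on the adult arrays and 9.27, 8.75, 9.18 and 8.78 on the stem cell arrays. Topoisomerase Top2a read 4.75, 4.68 and 4.93 against 10.95, 9.63, 10.61 and 9.85 (-5.48 ± 0.29), cyclin Ccna2 was lower by 5.33 ± 0.19 and the kinase Plk1 was at -4.88 ± 0.14. Among replication licensing genes Mcm5 was at -4.68 ± 0.19, Mcm6 at -4.59 ± 0.23 and Cdc6 at -4.62 ± 0.26. The replication gene that was not called, Tk1, was at -0.59. DNA repair and checkpoint genes were lower in 28 of 40 and higher in 0 (1 without stem cell replicate 1; median -2.05), including the mismatch repair gene Msh6 (-4.32 ± 0.18) and the kinase Chek2 (-4.36 ± 0.15).

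Of 31 regulators of G1, 15 (48.4%) were lower and 4 (12.9%) higher, the latter a share near the 11.0% of all genes called higher. Cyclin Ccne1 was at -3.02 ± 0.20 and the kinase Cdk4 at -2.83 ± 0.15. The cell cycle inhibitor Cdkn1a, which encodes p21, was also lower in adult hepatocytes, at 6.91, 5.57 and 6.49 against 10.84, 11.72, 10.93 and 11.63 (-4.96 ± 0.32). Cyclin Ccnd2 was higher by 1.71 ± 0.22. Higher too were Mxd4, a repressor of growth genes, by 2.67 ± 0.22 and Rbl2, a pocket protein of resting cells, by 2.42 ± 0.15. Cyclin Ccnd1 read 9.84, 9.98 and 9.99 in adult hepatocytes and 9.37, 8.18, 9.79 and 7.94 in stem cells, so that stem cell replicates 1 and 3 lay close to the adult arrays. Its difference was 1.12 ± 0.39, and without adult replicate 1, 2 or 3 it was 1.17, 1.10 or 1.09 and without stem cell replicate 2 or 4 it was 0.91 or 0.83, in each case not called. Median centring (1.02) and a further quantile step (1.03) ended its call as well.

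Letters of the cell cycle motifs were counted in the promoters of both division lists. The sequence TTTGAA (CHR, the cell cycle homology region) was found in 72.7% of 44 mitosis promoters, 11.6% of 43 replication promoters and 15.4% of all. CCAAT (NF-Y) stood in 70.5% of mitosis promoters, 58.1% of replication promoters and 37.7% of all, while the E2F letters TTTCCCGC stood in 16.3% of replication promoters, 0% of mitosis promoters and 1.41% of all, and the E2F letters TTTCGCGC in 6 replication promoters, 1 mitosis promoter and 0.427% of all. Plasma protein promoters held CHR letters in 14.8% and CCAAT in 55.6%, and cytochrome P450 promoters in 30.3% and 51.5%. The median was 24 CpG in 300 bases for mitosis and 23 for replication. A promoter of Top2a, with CHR and CCAAT matches in capitals, and of Mcm6, with an E2F match in capitals, are shown as examples chosen after the values were seen.
Top2a, chr11:99024190-99024439, minus strand: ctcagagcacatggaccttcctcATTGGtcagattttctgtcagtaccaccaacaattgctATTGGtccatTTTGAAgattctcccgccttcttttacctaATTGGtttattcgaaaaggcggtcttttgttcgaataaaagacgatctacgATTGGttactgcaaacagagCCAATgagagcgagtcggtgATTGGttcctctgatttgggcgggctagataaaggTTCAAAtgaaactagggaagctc
Mcm6, chr1:128359706-128359955, minus strand: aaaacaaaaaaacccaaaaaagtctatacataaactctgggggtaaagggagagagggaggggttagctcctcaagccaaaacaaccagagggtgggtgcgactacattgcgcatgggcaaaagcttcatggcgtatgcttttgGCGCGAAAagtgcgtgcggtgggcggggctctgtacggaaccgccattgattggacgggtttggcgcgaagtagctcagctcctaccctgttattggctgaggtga
The CHR match nearest the start of Top2a lay at -23 to -18, and the E2F match of Mcm6 at -106 to -99. Kif2c, a mitosis gene picked along with Top2a and not shown, had a CHR match at -103 to -98 and no CCAAT match.

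Biosynthesis genes were lower along with division genes. All 41 measured genes of ribosome biogenesis and the nucleolus were lower, with a median of -2.10. Tcof1, a cofactor of ribosomal RNA transcription, read 6.09, 6.24 and 6.16 against 9.97, 10.10, 10.06 and 10.16 (-3.91 ± 0.14). Nucleophosmin, Npm1, read 9.05, 7.83 and 7.89 against 12.09, 11.01, 12.05 and 11.28 (-3.35 ± 0.34), highest on adult replicate 1. Telomere maintenance genes were lower in 14 of 19 and higher in 0, and Terc, the RNA template of telomerase, was lower by 2.43 ± 0.29. Nucleotide and folate genes were lower in 21 of 35 and higher in 2. Ribonucleotide reductase Rrm2 was at -3.62 ± 0.16 and mitochondrial Mthfd2 at -4.06 ± 0.16, whereas Aldh1l1 and Shmt1, folate enzymes abundant in liver, were higher by 3.75 ± 0.32 and 1.11 ± 0.18.

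Several of the lowest metabolic genes belong to a group that cells induce through Atf4 when amino acids are scarce, and a list of 21 such genes was put together after these values were seen, so its count is a description. Of these 14 were lower and 2 higher. Asparagine synthetase, Asns, read 5.84, 5.59 and 5.67 against 10.99, 11.52, 11.12 and 11.41 (-5.55 ± 0.17). The serine synthesis gene Psat1 and the amino acid carriers Slc7a3 and Slc7a5 were also lower, the carriers at -4.96 ± 0.21 and -3.66 ± 0.19, and the stress gene Sesn2 was at -3.58 ± 0.22. Higher were Atf5 (2.52 ± 0.26) and Vldlr (2.79 ± 0.21).

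RNA regulators were called in both directions. Of 34 RNA-binding and splicing genes 13 (38.2%) were lower and 5 (14.7%) higher, the latter a share near the 11.0% of all genes called higher. A1cf, which complements the editing of apolipoprotein B messenger RNA, read 10.33, 10.21 and 10.45 against 3.13, 3.38, 3.01 and 3.01 (7.20 ± 0.15), and the splicing regulators Mbnl1 and Esrp2 were higher by 3.00 ± 0.24 and 2.86 ± 0.18. The oncofetal Igf2bp3 was lower by 4.72 ± 0.15, and the microRNA processing enzyme Drosha by 3.01 ± 0.14.

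Genes of microRNAs were measured through clusters that read the precursor region, not the mature microRNA, and most were dim. Of 57 measured, 9 (15.8%) were lower and 3 (5.26%) higher, shares near and below the 15.6% and 11.0% of all genes. With dim genes left out, 2 were called lower and 0 higher. Of the 15 mature sequences that RefSeq (GRCm38.p6) gave for those lower in adult hepatocytes, 8 are shown, picked after the values were seen to set related seeds side by side, with the seed, bases 2 to 8, in capitals. The 7 others are further arms, among them the single arm given for Mir302a.
mmu-miR-290a-3p, chr7:3218674-3218697, plus strand: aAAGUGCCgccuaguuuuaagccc
mmu-miR-302b-3p, chr3:127545275-127545297, plus strand: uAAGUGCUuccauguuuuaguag
mmu-miR-302c-3p, chr3:127545406-127545427, plus strand: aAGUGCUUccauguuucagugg
mmu-miR-18a-5p, chr14:115043867-115043889, plus strand: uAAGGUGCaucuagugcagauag
mmu-miR-18b-5p, chrX:52742381-52742403, minus strand: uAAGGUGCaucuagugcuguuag
mmu-miR-19a-3p, chr14:115044048-115044070, plus strand: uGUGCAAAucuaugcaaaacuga
mmu-miR-19b-3p, chrX:52741991-52742013, minus strand: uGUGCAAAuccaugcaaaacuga
mmu-miR-363-3p, chrX:52741697-52741718, minus strand: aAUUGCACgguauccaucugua
The seeds AAGUGCC of miR-290a and AAGUGCU of miR-302b differ in the last base, and that of miR-302c is shifted by 1 base. The seed AAGGUGC is shared by the miR-18 sequences and GUGCAAA by the miR-19 sequences, which lie in related clusters on chromosomes 14 and X.

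Mir290a, of the cluster that dominates in mouse stem cells, read 3.16, 3.99 and 2.54 in adult hepatocytes and 7.81, 8.64, 8.25 and 8.53 in stem cells (-5.08 ± 0.31, adjusted p = 1.61e-07). The groups did not overlap. Mir18b was lower by 3.49 ± 0.20, at 2.96, 2.89 and 3.35 against 6.86, 6.56, 6.10 and 6.71. Mir302b read 2.64, 2.41 and 2.20 against 2.69, 5.30, 4.13 and 4.73, so stem cell replicate 1 stood at the adult level, and likewise for Mir302a and Mir302c. Without that replicate the differences of Mir302a, Mir302b and Mir302c were -1.92, -2.31 and -2.06, against -1.40, -1.80 and -1.61 with it. Mir302a was not called without adult replicate 1 (-1.38) or 3 (-1.25), or stem cell replicate 2 (-1.25), 3 (-1.21) or 4 (-1.22). Higher were Mir122, the most abundant liver microRNA, at 6.99, 4.66 and 6.09 against 4.91, 3.34, 3.76 and 3.76 (1.97 ± 0.49), with Mir192 (1.37 ± 0.27) and Mir193a (1.22 ± 0.23). Without adult replicate 1, Mir193a was at 0.99 and not called. The adult arrays overlapped stem cell replicate 1 for Mir122.

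Surface and junction genes distinguished the epithelial types. Of 36 epithelial genes 15 (41.7%) were higher and 7 (19.4%) lower, against 11.0% and 15.6% of all genes. The gap junction gene Gjb2 read 10.63, 10.60 and 10.59 against 5.04, 4.64, 4.73 and 4.95 (5.77 ± 0.15), and Gjb1, the main connexin of hepatocytes, was higher by 4.56 ± 0.20. Claudin Cldn1 was higher by 5.38 ± 0.21 and Cldn4 lower by 4.02 ± 0.33. The adhesion molecule Epcam read 4.05, 3.76 and 3.48 against 9.12, 8.96, 9.04 and 9.06 (-5.28 ± 0.16). Stem cell signalling genes went both ways, 20 of 47 lower and 13 higher. The inhibitor of differentiation Id2 was higher by 5.17 ± 0.20 and the LIF receptor Lifr by 3.11 ± 0.21, at 11.37, 10.93 and 10.97 against 8.39, 7.68, 8.19 and 7.68. Lower were the receptor Kit (-3.78 ± 0.18), the FGF target Etv5 (-3.83 ± 0.17) and Tcf7l1 (-3.81 ± 0.22), a repressor in Wnt signalling. Dusp6, another FGF target, was higher by 3.20 ± 0.35.

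Genes through which immune cells read their targets were compared because the series concerns natural killer cells. Of 27 genes of MHC class I presentation 16 were higher and 0 lower (median 1.80). The liver class Ib gene H2-Q10 read 8.06, 8.36 and 8.99 against 3.56, 3.75, 3.75 and 3.41 (4.85 ± 0.22), and H2-K1 and B2m were higher by 3.41 ± 0.17 and 3.07 ± 0.20. The lipid-presenting Cd1d1 was higher by 4.49 ± 0.16 and the trimming peptidase Erap1 by 4.50 ± 0.27. Of 28 measured ligands and adhesion molecules of natural killer cells (37 listed), 9 (32.1%) were higher and 9 (32.1%) lower, against 11.0% and 15.6% of all genes. Without adult replicate 1 there were 7 and 10. Raet1a to Raet1e, H60a and Pvrl1 to Pvrl3 were listed but not measured under those symbols, so the count does not cover them. Clec2d, a ligand of inhibitory receptors of natural killer cells, read 11.07, 11.51 and 11.50 against 4.50, 4.49, 4.35 and 4.04 (7.01 ± 0.18). Ceacam1, another inhibitory ligand, was higher by 4.86 ± 0.25, Lgals9 by 4.47 ± 0.20 and Cd47 by 4.27 ± 0.16. The death receptor Tnfrsf10b was lower, at 4.34, 4.07 and 4.47 against 9.02, 9.54, 9.20 and 9.56 (-5.04 ± 0.18), while Fas was higher by 3.49 ± 0.18. The activating ligand Pvr was lower by 2.33 ± 0.25 and the adhesion molecule Icam1 by 2.06 ± 0.28. Interferon and innate sensing genes were higher in 21 of 45 and lower in 4, with Iigp1 at 10.85, 9.30 and 9.97 against 4.00, 3.33, 3.89 and 3.96 (6.24 ± 0.32), the RNA sensor Ifih1 at 4.25 ± 0.23 and Oas1g at -2.84 ± 0.29. Macrophages and endothelium express many of these genes as well, and the values of their markers are given above.

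Genes that respond early to tissue dissociation were higher in 9 of 28 and lower in 4. The share lower was near the 15.6% of all genes called lower, while the share higher was above the 11.0% called higher. Zfp36 was higher by 4.15 ± 0.28, Jun by 3.02 ± 0.27 and Fos by 2.43 ± 0.25, whereas Nr4a1 and Socs3 were at -2.34 ± 0.20 and -1.68 ± 0.16. The heat shock gene Hspa1b read 9.21 on adult replicate 1 and 7.07 and 6.96 on the others, against 5.79 to 6.27, and its difference was 1.71 with replicate 1 and 0.97 without it, which is not called. The small heat shock gene Hspb1 was lower by 4.16 ± 0.23.

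Clock genes separated adult replicate 1 from the other adult arrays. The core activator Arntl read 8.64 on replicate 1 and 5.27 and 5.74 on replicates 2 and 3, against 7.68, 7.78, 7.83 and 7.54 in stem cells. Its partner Npas2 was at 6.95, 5.16 and 5.44. Several, though not all, genes that the activators drive were low where these were high. Per3 read 6.51, 8.62 and 8.52, Dbp 8.39, 10.19 and 9.88, Usp2 6.90, 9.76 and 9.63, and Ciart 5.55, 7.92 and 7.53. The labels give no time of collection. Of 18 clock genes 11 were higher than in stem cells and 0 lower, and without replicate 1 there were 11 and 1. Arntl was at -1.15 (limma, adjusted p = 0.169) with replicate 1 and at -2.20 (adjusted p = 6.12e-06) without it, so it was called lower only in its absence. Usp2 was higher by 2.41 ± 0.57 with and by 3.34 without replicate 1, Per3 by 2.56 ± 0.42 and 3.24, and Dbp by 2.69 ± 0.37 and 3.24. Clock was higher by 1.19 ± 0.40 and not called without replicate 1 (0.79), nor without adult replicate 3 (1.27) or stem cell replicate 2 (1.02), 3 (1.24) or 4 (1.02), while Nr1d1 was at 2.04 in both. Wee1, a mitotic inhibitor with clock elements, read 6.04, 8.43 and 8.69 on the adult arrays, with a difference of -1.57 ± 0.51, but at -0.73 without replicate 1, which is not called, as it is not without stem cell replicate 1 (-1.45) or under cyclic loess (-1.13).

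**Figure D5:**
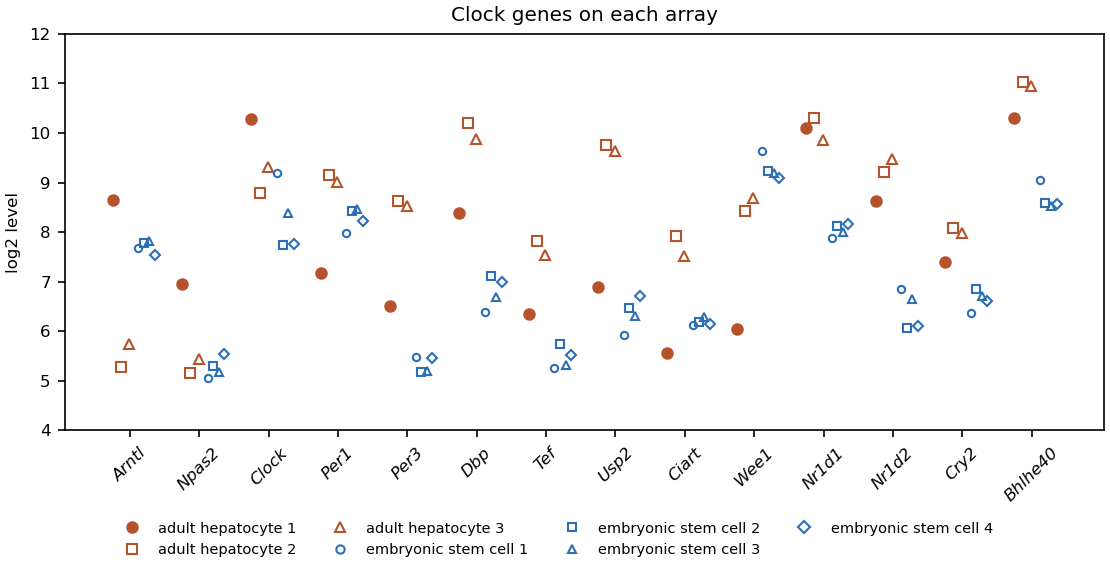
Log2 levels of 14 clock-related genes on each array, with adult replicate 1 as a filled circle, adult replicates 2 and 3 open, and embryonic stem cells in blue. Arntl, Npas2 and Clock are highest on adult replicate 1, and Per1, Per3, Dbp, Tef, Usp2, Ciart and Wee1 are lowest there among adult arrays.

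Pancreatic transcripts also set adult replicate 1 apart. A list of 24 acinar cell genes, drawn up after the values were seen, had a mean of 7.85 on replicate 1, 4.43 and 4.58 on replicates 2 and 3, and 4.30 to 4.42 on stem cell arrays. The protease gene Ctrb1 read 11.37, 5.49 and 5.41 in adult hepatocytes and 5.63 to 5.88 in stem cells, the carboxypeptidase gene Cpa1 10.13, 4.57 and 4.79, and the lipase gene Cel 10.22, 5.11 and 5.19. None of Ctrb1, Cpa1 and Cel was called, and 1 of the 24 was. That was Pnliprp2, higher by 1.27 ± 0.36, but at 0.73 and not called without replicate 1. With replicate 1 left out, 2410 genes were called higher and 3626 lower, and 5641 of the 5898 calls remained in the same direction.

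Genes with known sex bias in mouse liver were looked at because the labels give no sex. Xist, the RNA that silences an X chromosome in female cells, read 10.17, 10.38 and 10.06 in adult hepatocytes and 4.23, 4.26, 4.62 and 4.52 in stem cells. The Y-linked gene Kdm5d was low on all 7 arrays, between 2.84 and 3.39. Of 20 genes known as female-predominant in liver, listed after the values were seen, 18 were higher and 0 lower, including Cyp2b9, Sult3a2 and Cyp3a44, the last at 11.27, 11.16 and 11.15 against 2.72 to 3.94. Of 19 male-predominant genes 10 were higher and 1 lower. Cyp2d9 (3.74, 3.81 and 3.26) and Cyp4a12a (4.57, 3.66 and 3.56) stayed near the floor, whereas the uptake carrier Slco1a1 read 11.49, 11.12 and 11.39. Sex is not labelled for either group, so its part in these differences was not tested.

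Within the stem cells, replicates 1 and 3 differed from replicates 2 and 4 in some genes. Values are given for replicates 1 to 4 in turn. Aqp3, a glycerol channel, read 8.41, 11.63, 9.31 and 11.49, the homeobox gene Rhox5 6.70, 9.58, 6.60 and 9.01, and the phosphatase Dusp9 7.69, 9.65, 7.27 and 9.44. In the opposite sense Utf1, a chromatin gene of the early embryo, read 8.81, 7.21, 9.76 and 7.13. Replicates 2 and 4 were high in Aqp3, Rhox5 and Dusp9 and low in Utf1. Whole lists differed too: the mean of the mitosis list was 9.27, 8.75, 9.18 and 8.78, that of the DNA repair list 7.92, 7.51, 7.82 and 7.48, and that of the amino acid response list 8.33, 8.72, 8.26 and 8.61. The spread widened the errors of these genes, with the adult hepatocytes at -5.15 ± 0.67 for Aqp3 and -2.86 ± 0.67 for Rhox5 relative to the stem cells. The labels name nothing that separates these stem cell samples.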

How the data were processed

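The series was measured on Affymetrix transcript arrays from total RNA, and 7 of its 10 arrays are used here. The deposited values are log2 expression levels that the authors made with RMA, for which the submitters' processing notes list Transcriptome Analysis Console, R 3.3.1 and oligo 1.38.0. No further normalization was applied. For each gene the cluster with the highest mean over the 7 arrays was kept. Symbols came from the platform annotation, and 23328 of 23521 were found in RefSeq by Entrez identifier. Differences are adult hepatocytes minus embryonic stem cells, from limma 3.58.1 (R 4.3.3) over 22180 genes with Benjamini-Hochberg adjustment, moderated with 5 residual and 5.57 prior degrees of freedom. Errors are standard errors. The fit was also run on simulated levels for 22180 genes, where 100 genes were given a difference of 1.5 and 100 a difference of 3. It called 87% of the smaller and 97% of the larger differences, and 5 unshifted genes were called falsely. Far fewer genes differed in the simulation than the 26.6% called in the real data. These rates therefore need not hold for the real arrays.

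The members, gene lists and tests were chosen with earlier results of these data known. The text names the 12 largest differences each way over all genes and, from each list, draws on up to 6 called members in each direction by size and up to 3 that go against it, not all of which are printed. Lists of acinar, female-predominant, male-predominant and amino acid response genes were added after the values were seen. Of the 246 genes named with values or as ends of runs, 45 fall outside this rule and were chosen after their values were seen. Lists are described by counts and medians, without a test. Alternatives changed the normalization, weights, clusters, dim genes, arrays fitted and threshold.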

Additional observations from a re-analysis of the deposited data

Results flagged for a closer look

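Among the 4 stem cell arrays, 13 of the 246 genes named had a single array far from the other 3, by Dixon's criterion at the 95% level. Chance flags about 1 in 20 such groups, so 13 of 246 is close to the number that chance alone would flag. Replicate 1 was the distant array in 7 of them. It was low for Mir302a, at 2.36 against 4.36 to 4.49, and for Mir302c, at 2.78 against 4.46 to 4.63. For the dioxygenase Tet1 it was high, at 10.50 against 9.47 to 9.64, as for Cfi, at 4.62 against 3.90 to 3.97, and Cel, at 5.39 against 4.53 to 4.65. Esrp2 was low there, at 6.44 against 6.97 to 7.06, and Mybl2 at 11.51 against 11.77 to 11.81. Replicate 2 was distant for Iigp1, at 3.33 against 3.89 to 4.00, and Kdm5d, at 3.39 against 2.88 to 2.95. Nr0b1 stood at 10.99 on replicate 3 against 10.82 to 10.83. On replicate 4 Cps1 was at 5.37 against 5.66 to 5.69, Slco1a1 at 3.07 against 3.20 to 3.21, and Sqle at 8.77 against 8.94 to 8.97. With 3 adult arrays, this rule does not apply to the hepatocytes.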

How the results depend on the processing

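With no minimum difference 4241 genes were higher and 5304 lower in adult hepatocytes, and with a minimum log2 difference of 2 there were 1267 and 1234. Other settings stayed within 1.5 times the reported 2447 and 3451. Leaving out single arrays gave 2410 to 2502 higher and 3312 to 3626 lower. Cyclic loess gave 2937 and 2630, and 4984 of the 5898 calls kept their direction under it, the fewest of any normalization, array or cluster setting. None was called the other way except 1 gene, Ptcd3, when clusters were averaged. The replicate numbers did not pair the samples: same-numbered samples correlated at 0.14, 0.09 and -0.08 in their deviations from group means, and with the replicate block 2460 genes were higher and 3494 lower, and Arg2 (-0.98) and Ccnd1 (0.83) lost their calls. Of 226 named genes that were called, 211 kept their call in every normalization, array and cluster setting run and 15 lost it in at least 1.

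Among the named genes, direction changed only for some that were not called. Col1a1 was at 0.049 under cyclic loess and Cyp4a12a at -0.0021 with array weights. Leaving out single arrays gave -0.29 to 2.69 for Ctrb1 and -0.18 to 0.33 for Cyp4a12a, both lowest without adult replicate 1. It gave -0.18 to 0.80 for Per1, highest without adult replicate 1, and -0.20 to 0.028 for Kdm5d. The hormone receptor list had 2 lower in place of 1 without adult replicate 1 or stem cell replicate 2, and the complement list 1 in place of 0 without the same arrays. Averaging clusters left Tef at 0.98, and a further quantile step left Shmt1 at 0.93, both below the threshold. Signal near the array floor limits differences of genes that are low in 1 group.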
